A study of Mus musculus with 12 samples.

Results

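The 10 genes Dnmt1, Dnmt3a, Dnmt3b, Uhrf1, Hells, Ezh2, Suz12, Eed, Tet1 and Tet2 encode enzymes and partner proteins that write, keep or remove DNA methylation, or that make up the core of the Polycomb repressive complex 2. They were chosen by name, and their members on the array are all the probe sets (groups of short oligonucleotides read together as 1 measurement) whose annotation names that gene and no other. There are 30 such probe sets for the 10 genes, of 18193 genes that at least 1 probe set names alone. Their expression was described in pituitary tumors of mice heterozygous or homozygous for a knockout of Pomc, the gene of the hormone precursor pro-opiomelanocortin, and in normal mouse pituitary.

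The series held 12 Affymetrix Mouse Genome 430 2.0 arrays of untreated tissue, with 8 of heterozygous POMC KO, 2 of homozygous POMC KO and 2 of normal mouse pituitary. The knockout was carried by every cell of the animal, the heterozygous mice kept 1 intact allele, and the tumors arose spontaneously, so each tumor is its own lesion in a gland that can also hold normal cells. Age and sex of the mice on the arrays are not given in the sources used here, and the study's methods name pooled pituitaries for the normal mouse tissue without saying which array held what. The 8 heterozygous arrays fell in pairs by number, and the 2 homozygous arrays formed another pair. Within these 5 pairs the correlation across probe sets was 0.997 and at most 2 probe sets differed more than 2-fold, whereas arrays of different heterozygous pairs differed at 368 to 828 probe sets and the 2 normal arrays at 242. Each pair was averaged and counted as 1 sample, which left 4 heterozygous samples (1-2, 3-4, 5-6 and 7-8), 1 homozygous sample and 2 normal samples. The series text takes each array for a mouse, and what the arrays of a pair share is not stated, so p-values measure the spread between these samples, and the homozygous sample has no replicate of its own.

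Values are log2 signals after Robust Multichip Average normalization (RMA), where 1 unit is a 2-fold difference. Levels of different probe sets cannot be set against each other, because each binds its RNA with its own strength. Array values carry no read depth, and precision is set by the number of samples and the spread between them. In whole tissue, fewer cells of a type and less RNA per cell cannot be told apart. Pomc itself, the targeted gene, was at 15.28, 15.30, 15.27 and 15.15 in the heterozygous samples and at 7.18 in the homozygous sample, against 15.08 and 15.11 in the normal samples. The Pomc signal was thus low in the homozygous sample alone, as its label says.

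DNA methylation in mammals is written on cytosines that precede a guanine. Dnmt3a and Dnmt3b place it on unmarked DNA, and Dnmt1 copies it onto the new strand behind the replication fork, guided there by Uhrf1, which recognizes half-methylated sites, while Hells remodels chromatin so that methylation can reach packed repeats. Tet1 and Tet2 oxidize the mark and so start its removal. Polycomb repressive complex 2 adds methyl groups to a lysine in the tail of histone H3, a mark of silenced genes, with Ezh2 as its catalytic subunit and Suz12 and Eed as the subunits it needs for activity. The maintenance enzymes and Ezh2 are known as genes that dividing cells transcribe as they enter DNA replication, and E2F factors are known to act at many such genes.

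The promoters of Hells, Ezh2, Uhrf1 and Dnmt1 are shown because these 4 of the 10 genes had an adjusted p under 0.05 in heterozygous tumors, and that of Suz12 is shown as the gene of a partner of Ezh2 that did not pass the test. RefSeq windows on GRCm38.p6, from 250 bases before to 50 bases after each annotated start, were searched on both strands for the E2F letters TTTCCCGC, TTTGGCGC, TTTCGCGC and TTTGCCGC. Capitals mark those letters (or their reverse complement), and each window is given 5′ to 3′ on the strand of its gene:
Hells: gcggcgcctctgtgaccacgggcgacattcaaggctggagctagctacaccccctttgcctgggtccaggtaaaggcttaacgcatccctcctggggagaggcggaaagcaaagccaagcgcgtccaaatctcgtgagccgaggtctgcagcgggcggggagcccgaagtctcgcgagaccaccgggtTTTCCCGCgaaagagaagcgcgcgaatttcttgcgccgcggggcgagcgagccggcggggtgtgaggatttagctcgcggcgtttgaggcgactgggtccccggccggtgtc
Ezh2: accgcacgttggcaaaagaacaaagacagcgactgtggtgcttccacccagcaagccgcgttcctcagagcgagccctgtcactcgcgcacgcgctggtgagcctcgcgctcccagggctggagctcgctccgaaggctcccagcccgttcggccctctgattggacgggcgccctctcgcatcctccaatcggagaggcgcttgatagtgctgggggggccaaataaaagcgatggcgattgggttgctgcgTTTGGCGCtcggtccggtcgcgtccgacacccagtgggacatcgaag
Uhrf1: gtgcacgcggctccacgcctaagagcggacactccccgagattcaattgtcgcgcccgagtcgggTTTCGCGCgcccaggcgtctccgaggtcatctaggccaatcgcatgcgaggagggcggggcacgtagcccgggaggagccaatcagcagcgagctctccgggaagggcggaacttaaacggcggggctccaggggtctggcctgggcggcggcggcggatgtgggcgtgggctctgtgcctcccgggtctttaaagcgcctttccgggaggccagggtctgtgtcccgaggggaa
Dnmt1: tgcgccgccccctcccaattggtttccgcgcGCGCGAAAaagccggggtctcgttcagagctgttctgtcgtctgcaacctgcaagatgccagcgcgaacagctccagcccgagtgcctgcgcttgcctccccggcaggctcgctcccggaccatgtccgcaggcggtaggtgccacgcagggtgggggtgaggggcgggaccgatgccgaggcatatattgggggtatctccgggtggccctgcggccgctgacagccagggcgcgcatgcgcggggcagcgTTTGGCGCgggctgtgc
Suz12: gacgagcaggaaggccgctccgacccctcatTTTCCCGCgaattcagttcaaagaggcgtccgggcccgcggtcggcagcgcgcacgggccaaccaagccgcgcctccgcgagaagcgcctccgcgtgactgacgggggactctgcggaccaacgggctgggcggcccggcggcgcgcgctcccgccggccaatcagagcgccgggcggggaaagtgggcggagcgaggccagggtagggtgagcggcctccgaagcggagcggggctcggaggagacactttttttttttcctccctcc

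The Hells window lies at chr19:38930740-38931039 on the plus strand, the Ezh2 window at chr6:47594981-47595280 on the minus strand, and the Uhrf1 window at chr17:56304063-56304362 on the plus strand. The Dnmt1 window lies at chr9:20952574-20952873 on the minus strand and holds 2 matches, and the Suz12 window lies at chr11:79992856-79993155 on the plus strand. Uhrf1 and Dnmt1 each have further windows from other annotated starts, which hold none of these letters. E2F letters were present in a window of 5 of the 10 genes, namely these 5, and in none of the windows of Dnmt3a, Dnmt3b, Eed, Tet1 or Tet2. Over all promoters, 744 of 32851 windows (2.26%) held them, and by gene 468 of 9931 tested genes with a window (4.71%). Suz12 held the same letters as Hells, TTTCCCGC, and its signal did not pass the test, so a match describes the sequence and no more. The windows of these 5 genes hold 31 to 41 CG dinucleotides, against a median of 7 over all windows. Some windows of genes without E2F letters reached like or higher counts, with 57 for Tet2, 46 and 47 in windows of Dnmt3a and 30 for Dnmt3b. Others were lower, with 17 for Eed, 17 for Tet1 and 18 in a further Dnmt3a window. The other Dnmt1 windows hold 2 and 12, and the other Uhrf1 window holds 12. The CCAAT box, the letters CCAAT on either strand, occurs 3 times in the Ezh2 window, 3 times in the Dnmt1 window, 2 times in the Uhrf1 window, 1 time in the Suz12 window and 0 times in the Hells window, and 37.4% of all windows hold it. The CHR element, TTTGAA, is absent from the 4 windows of Hells, Ezh2, Uhrf1 and Dnmt1, and 17.9% of all windows hold it.

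The first question was how the 10 genes differ between heterozygous POMC KO tumors and normal pituitary. Hells, Uhrf1 and Ezh2 were higher in the tumors, by 10.3-fold, 5.55-fold and 3.84-fold. Dnmt1 was higher by 1.80-fold at the probe set that stands for it and by more at its other probe sets. Dnmt3a, Dnmt3b, Suz12, Eed, Tet1 and Tet2 did not pass the test in either direction. A gene was called at an adjusted p under 0.05 and a fold over 2 in limma's moderated test, with Benjamini-Hochberg adjustment over all 24486 tested probe sets, and the brightest tested probe set stood for the gene. By that rule 3 of 10 genes were called higher, beside 681 of 12316 tested genes (5.53%), and 0 were called lower, beside 560 genes (4.55%). At an adjusted p under 0.05 alone, 4 were higher, beside 12.6% of all genes, and 0 were lower, beside 11.6%. None of the 10 was lower at an unadjusted p under 0.05 either, a threshold at which the share of all genes was not counted. By probe set, 24 of the 30 passed the filter on low values and 7 were called higher, beside 4.91% of all tested probe sets. The other 6, of Dnmt3b, Hells, Suz12, Eed and Tet1, lay under the median of all values (5.74) on every array. The brightest Hells probe set and both Uhrf1 probe sets reached that median on 10 arrays, those of the tumors. They thus passed the filter only through the tumor arrays, where they are high. With no filter on low values 3 of the 10 genes were called higher and 0 lower. Over all genes 1318 were then called in either direction, against 1241 with the filter. The share that these make of all unfiltered genes was not computed. The median log2 fold change over the 10 genes was 0.36, against 0 over all tested genes.

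**Figure D1:**
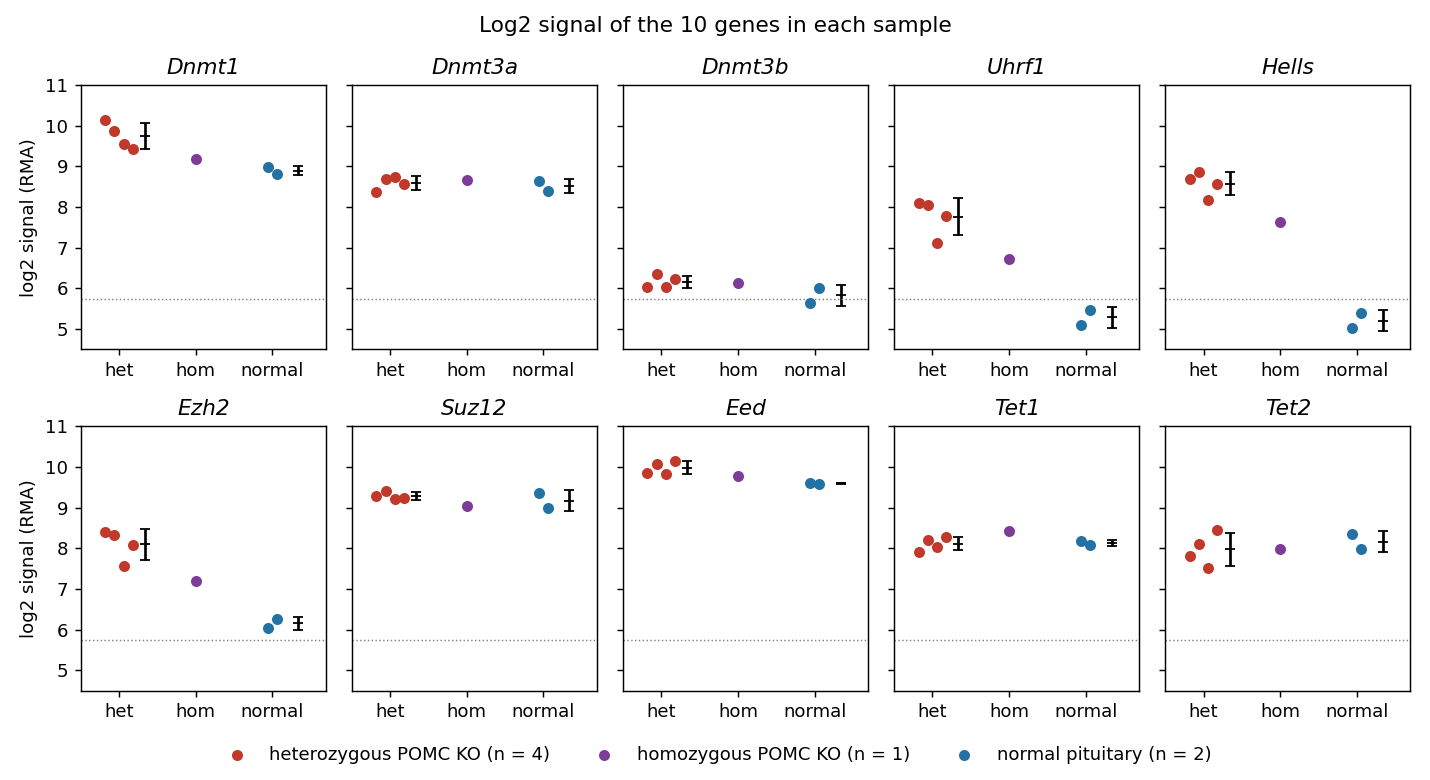
RMA signal (log2) of the 10 genes in each sample, with heterozygous POMC KO, the homozygous POMC KO and normal samples from left to right and the dotted line at the median of all values (5.74). Hells, Uhrf1, Ezh2, Dnmt1 and, by a smaller gap, Eed lie higher in all 4 heterozygous samples than in both normal samples. For these genes the homozygous sample lies between those groups. Dnmt3b also lies higher in all 4 heterozygous samples, by a still smaller gap, and its homozygous sample lies within the heterozygous range.

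Hells, the chromatin remodeler, had signals of 8.69, 8.86, 8.18 and 8.56 in the heterozygous samples and 7.62 in the homozygous sample, against 5.02 and 5.40 in the normal samples (probe set 1417541_at). All 4 heterozygous samples were above both normal samples, with no overlap, and the lowest was 5-6. How many of all tested genes separate in this way was not counted. Dnmt3b, Eed and a dimmer probe set of Tet1 (1419896_at) also did so, without passing the test. The heterozygous mean was 8.57 ± 0.29 (SD, n = 4) and the normal mean 5.21 ± 0.27 (SD, n = 2), a log2 fold change of 3.36 (SE 0.21, limma adjusted p = 0.00026). This ranked 19 among the 12316 tested genes, counted from the highest. A further probe set of Hells gave 2.19 (SE 0.23, limma adjusted p = 0.00102), and the remaining one was not tested, since its values lay under the median of all values on every array.

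Uhrf1, the guide of the maintenance methyltransferase, had signals of 8.11, 8.05, 7.11 and 7.77 in the heterozygous samples and 6.71 in the homozygous sample, against 5.10 and 5.47 in the normal samples (probe set 1415810_at). The groups did not overlap, and 5-6 was again the lowest of the heterozygous samples. The heterozygous mean was 7.76 ± 0.46 (SD, n = 4) and the normal mean 5.29 ± 0.26 (SD, n = 2), with a log2 fold change of 2.47 (SE 0.28, limma adjusted p = 0.0015, rank 78). Its other probe set was higher by 1.59 (limma adjusted p = 0.00665). The normal signals of Hells and Uhrf1 lay under the median of all values, where RMA compresses differences, so the sizes of these folds are not exact.

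Ezh2, the methyltransferase of that histone lysine, is read by 1 probe set (1416544_at). Its signals were 8.41, 8.32, 7.56 and 8.08 in the heterozygous samples and 7.20 in the homozygous sample, against 6.04 and 6.27 in the normal samples. No heterozygous sample reached down to a normal one, and 5-6 was the lowest here too. Heterozygous samples averaged 8.09 ± 0.38 (SD, n = 4) and normal samples 6.15 ± 0.16 (SD, n = 2), which gives a log2 fold change of 1.94 (SE 0.24, limma adjusted p = 0.00187, rank 180).

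Dnmt1, the maintenance methyltransferase, differed in size between its probe sets. The brightest (1422946_a_at) had signals of 10.15, 9.87, 9.54 and 9.42 in the heterozygous samples and 9.19 in the homozygous sample, against 8.98 and 8.81 in the normal samples. All heterozygous samples were above both normal samples, by a log2 fold change of 0.85 (SE 0.21, limma adjusted p = 0.0272), which is under the 2-fold limit. The next one (1435122_x_at) had 10.29, 10.22, 9.82 and 9.66 in the heterozygous samples and 9.45 in the homozygous sample, against 8.10 and 8.19 in the normal samples. Here the gap was wider, with a log2 fold change of 1.85 (SE 0.20, limma adjusted p = 0.0011), and the third probe set gave 1.62 (limma adjusted p = 0.00147). Both of these carry the suffix of probe sets in which some probes can bind other transcripts. Averaged over the 12 arrays rather than the 7 samples, 1435122_x_at is the brightest, and Dnmt1 is then called.

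**Figure D2:**
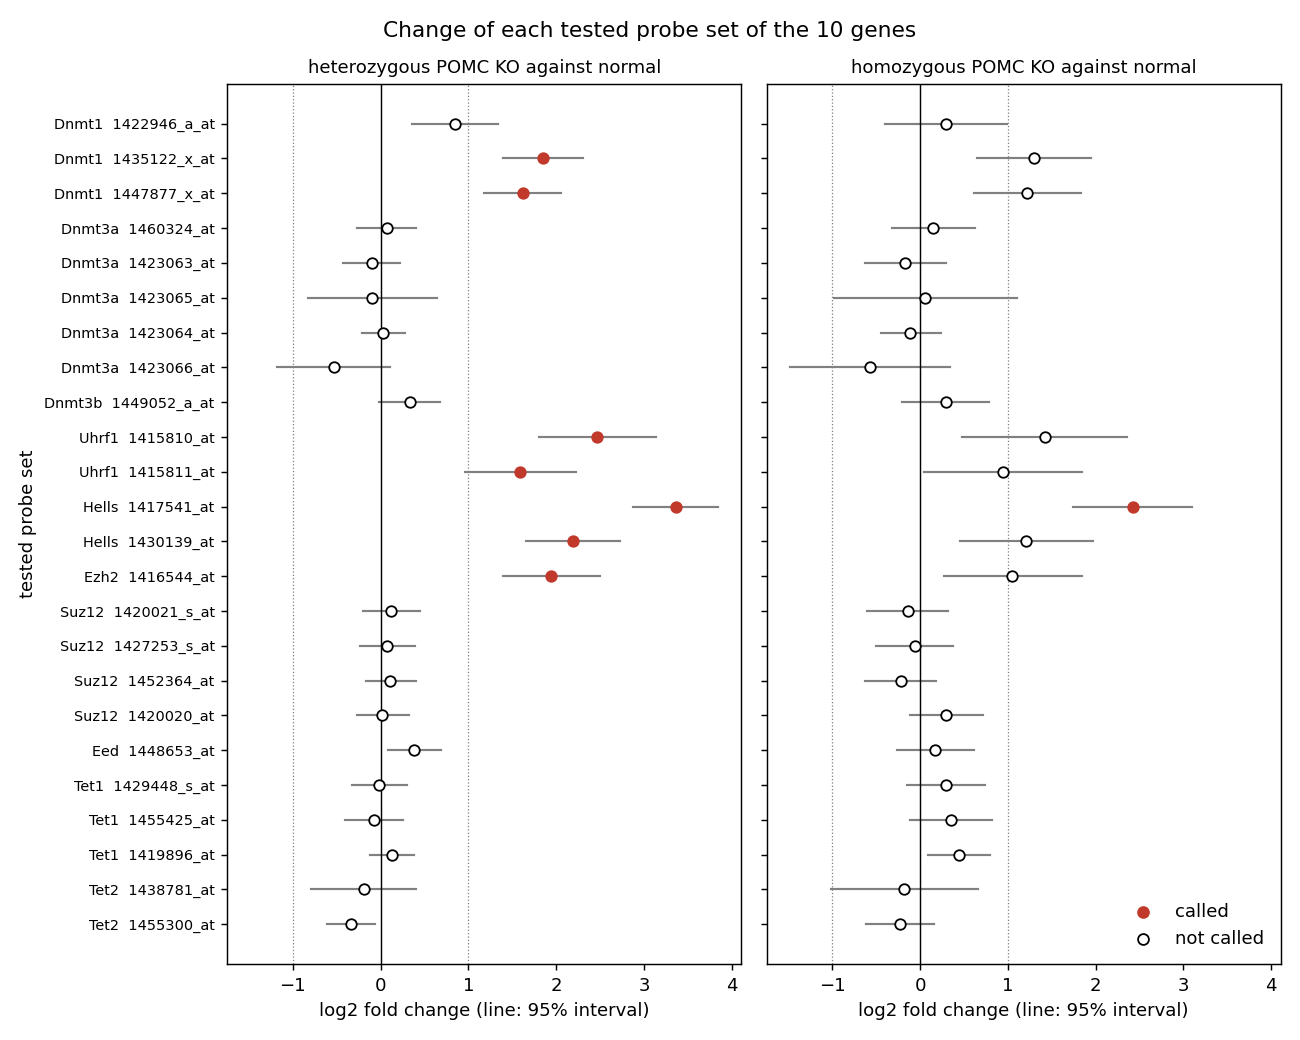
Log2 fold change with its 95% interval for each of the 24 tested probe sets of the 10 genes, filled where called. The panels show heterozygous POMC KO against normal and homozygous POMC KO against normal. In heterozygous tumors the intervals of Hells and Ezh2 lie above 1, as does that of the brighter Uhrf1 probe set. The other Uhrf1 interval runs from 0.96 to 2.23. Those of Dnmt1 run from 0.36 to 1.34, from 1.39 to 2.31 and from 1.18 to 2.05.

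The de novo methyltransferases had other values. Dnmt3a had signals of 8.37, 8.69, 8.73 and 8.56 in the heterozygous samples and 8.67 in the homozygous sample, against 8.64 and 8.40 in the normal samples, so that the groups overlapped. Its log2 fold change was 0.07 with a 95% interval of -0.27 to 0.40 (limma adjusted p = 0.773), an interval that holds no change of 2-fold. Over its 5 tested probe sets the values ran between -0.53 and 0.07, and none passed the test. The lowest, 1423066_at, had a 95% interval of -1.18 to 0.11, which does hold a 2-fold decrease. Dnmt3b lay low, at 6.04, 6.35, 6.04 and 6.22 in the heterozygous samples and 6.12 in the homozygous sample, against 5.65 and 6.0 in the normal samples. The gap between the lowest heterozygous sample and the higher normal one was smaller than the spread of either group, and the log2 fold change was 0.33 (95% interval -0.02 to 0.68, limma adjusted p = 0.156).

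Suz12 and Eed, the partners of Ezh2, did not pass the test. Suz12 had signals of 9.29, 9.41, 9.2 and 9.24 in the heterozygous samples and 9.03 in the homozygous sample, against 9.35 and 8.98 in the normal samples. The log2 fold change was 0.12 (95% interval -0.20 to 0.45, limma adjusted p = 0.566), and its 4 tested probe sets ran between 0.02 and 0.12. Eed, which binds the finished histone mark, had 9.86, 10.07, 9.83 and 10.15 in the heterozygous samples and 9.77 in the homozygous sample, against 9.60 and 9.59 in the normal samples. All 4 heterozygous samples of Eed were above both normal samples, yet the log2 fold change of 0.38 (95% interval 0.08 to 0.69) did not pass the adjustment (limma adjusted p = 0.076).

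Ezh2 was also set against its partners within each sample. The binding strength of a probe set is the same in every sample, so it cancels when such a difference is compared between groups, though the difference itself is no ratio of RNA levels. Ezh2 minus Suz12 was -0.88, -1.09, -1.64 and -1.16 in the heterozygous samples and -1.82 in the homozygous sample, against -3.31 and -2.71 in the normal samples. The heterozygous mean was higher than the normal mean by 1.82, and all 4 heterozygous values were above both normal values. The corresponding shift was 1.56 for Ezh2 minus Eed and 2.04 for Ezh2 minus Ezh1, where Ezh1 is the paralog that dominates in cells that do not divide. Each such shift is the log2 fold change of Ezh2 less that of the other gene, so it is no separate evidence. With 4 samples against 2 the exact permutation test, two-sided over 15 splits, gave p = 0.133 for each, which is the smallest it allows, so this design cannot pass a threshold of 0.05 by that test. Ezh1 itself had a log2 fold change of -0.10 (limma adjusted p = 0.646).

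**Figure D3:**
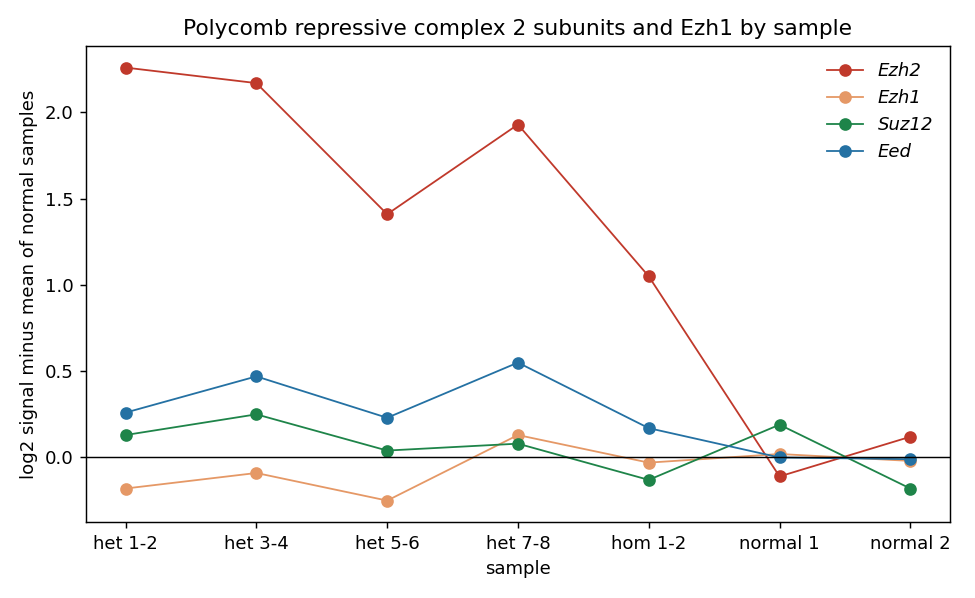
Log2 signal (RMA) of Ezh2, its paralog Ezh1 and the partner genes Suz12 and Eed in each of the 7 samples. Each gene is drawn less its own mean over the normal samples, and each line joins the values of 1 gene. Before that subtraction, Ezh2 was at 8.41, 8.32, 7.56 and 8.08 in the heterozygous samples, 7.20 in the homozygous sample and 6.04 and 6.27 in the normal samples. Suz12 stayed between 8.98 and 9.41.

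Of the genes that oxidize 5-methylcytosine, Tet1 had 7.92, 8.21, 8.03 and 8.28 in the heterozygous samples and 8.42 in the homozygous sample, against 8.18 and 8.07 in the normal samples. The groups overlapped and the log2 fold change was -0.02 (95% interval -0.33 to 0.30, limma adjusted p = 0.943). Tet2 had 7.81, 8.11, 7.52 and 8.44 in the heterozygous samples and 7.99 in the homozygous sample, against 8.34 and 7.99 in the normal samples. Its spread between tumors was wide, and the log2 fold change was -0.19 (95% interval -0.79 to 0.40, limma adjusted p = 0.621). The other Tet2 probe set gave -0.34 (limma adjusted p = 0.0821). The paralog Tet3 was not tested, since its signals lay under the median of all values.

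The second question was what the homozygous tumor sample showed against normal pituitary. Hells was called, with a 5.34-fold higher signal, and no other of the 10 genes was. This is 1 of 10 genes, beside 176 of 12316 (1.43%) called higher, and 0 called lower, beside 162 (1.32%). At an unadjusted p under 0.05, where the share of all genes was not counted, 0 were lower. By probe set 1 of 24 was called, beside 1.26% of all. The log2 fold change of Hells was 2.42 (SE 0.29, limma adjusted p = 0.0127), and it ranked 44. That call was lost when either normal sample was left out, at a limma adjusted p of 0.0708 without normal sample 1 and 0.0568 without normal sample 2, and at the other Hells probe set, with 1.21 (limma adjusted p = 0.105).

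In the homozygous sample Uhrf1 was 2.68-fold above the normal mean, a log2 fold change of 1.42 (SE 0.40, limma adjusted p = 0.123), and Ezh2 was 2.07-fold above it, with 1.05 (SE 0.34, limma adjusted p = 0.16). Neither passed the test, although the homozygous value lay above both normal values in each. Uhrf1 passed without heterozygous sample 5-6 (limma adjusted p = 0.035). Dnmt1 gave 0.30 (limma adjusted p = 0.655) at its brightest probe set, and 1.30 (limma adjusted p = 0.0576) and 1.22 (limma adjusted p = 0.0594) at the others. The remaining genes lay between -0.18 and 0.29, and the median over the 10 genes was 0.29, against -0.03 over all tested genes.

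The third question was whether the 2 knockout genotypes differed. For each of Hells, Uhrf1, Ezh2 and Dnmt1 the homozygous value was below all 4 heterozygous values and above both normal ones. Eed, which did not pass the test, had the same order, with 9.77 in the homozygous sample. How many of all tested genes have this order was not counted. The homozygous sample differed from the heterozygous mean by a log2 value of -1.05 for Uhrf1 (95% interval -1.91 to -0.19, limma adjusted p = 0.428), -0.95 for Hells (95% interval -1.57 to -0.32, limma adjusted p = 0.313) and -0.89 for Ezh2 (95% interval -1.61 to -0.17, limma adjusted p = 0.42). For Dnmt1 it was -0.55 (95% interval -1.19 to 0.08, limma adjusted p = 0.614). None of the 10 genes was called in limma, beside 36 of 12316 genes (0.292%) called in either direction. Of the 10, 3 had an unadjusted p under 0.05 in limma. The share of all tested genes at that looser threshold was not counted, so the 0.292% is no background for it. A single homozygous sample thus leaves the difference in size between genotypes unsettled for these genes.

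The rest of the DNA methylation and Polycomb machinery was read from 56 further genes chosen by function, of which 48 had a tested probe set. In heterozygous tumors 1 was called higher, beside 5.53% of all tested genes, and 0 lower, beside 4.55%, and their median log2 fold change was -0.03. Of the other DNA methylation genes 0 of 14 were called, of the other subunits and partners of Polycomb repressive complex 2 0 of 9, of Polycomb repressive complex 1 1 of 19, and of the genes whose products remove the Polycomb marks 0 of 6. At an adjusted p under 0.05 alone, 4 of the 48 were higher, beside 12.6% of all tested genes, and 5 lower, beside 11.6%, so neither share exceeds the background. Examples are the methyl-binding repair glycosylase Mbd4, higher by 0.79 (limma adjusted p = 0.00518), and Mbd3 of the same protein family, higher by 0.76 (limma adjusted p = 0.00835). Bmi1, a subunit of Polycomb repressive complex 1, was lower, with a log2 fold change of -0.72 (limma adjusted p = 0.0436). Its homozygous value of 10.23 was not lower than the normal values of 10.06 and 10.12.

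The gene called was Kdm2b, whose product brings a form of Polycomb repressive complex 1 to unmethylated CG-rich DNA. Its signals were 9.28, 9.62, 9.17 and 9.35 in the heterozygous samples and 9.39 in the homozygous sample, against 8.01 and 8.31 in the normal samples. Unlike in Hells, Uhrf1, Ezh2, Dnmt1 and Eed, its homozygous value lay within the heterozygous range. The log2 fold change was 1.19 (SE 0.16, limma adjusted p = 0.00253) in heterozygous and 1.23 (SE 0.23, limma adjusted p = 0.0395) in homozygous tumors. Its other probe set gave 0.62 (limma adjusted p = 0.03) and 0.56 (limma adjusted p = 0.241), so the call rests on 1 probe set, and the call in the homozygous sample was lost without heterozygous sample 1-2 or 7-8 or without either normal sample.

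**Figure D4:**
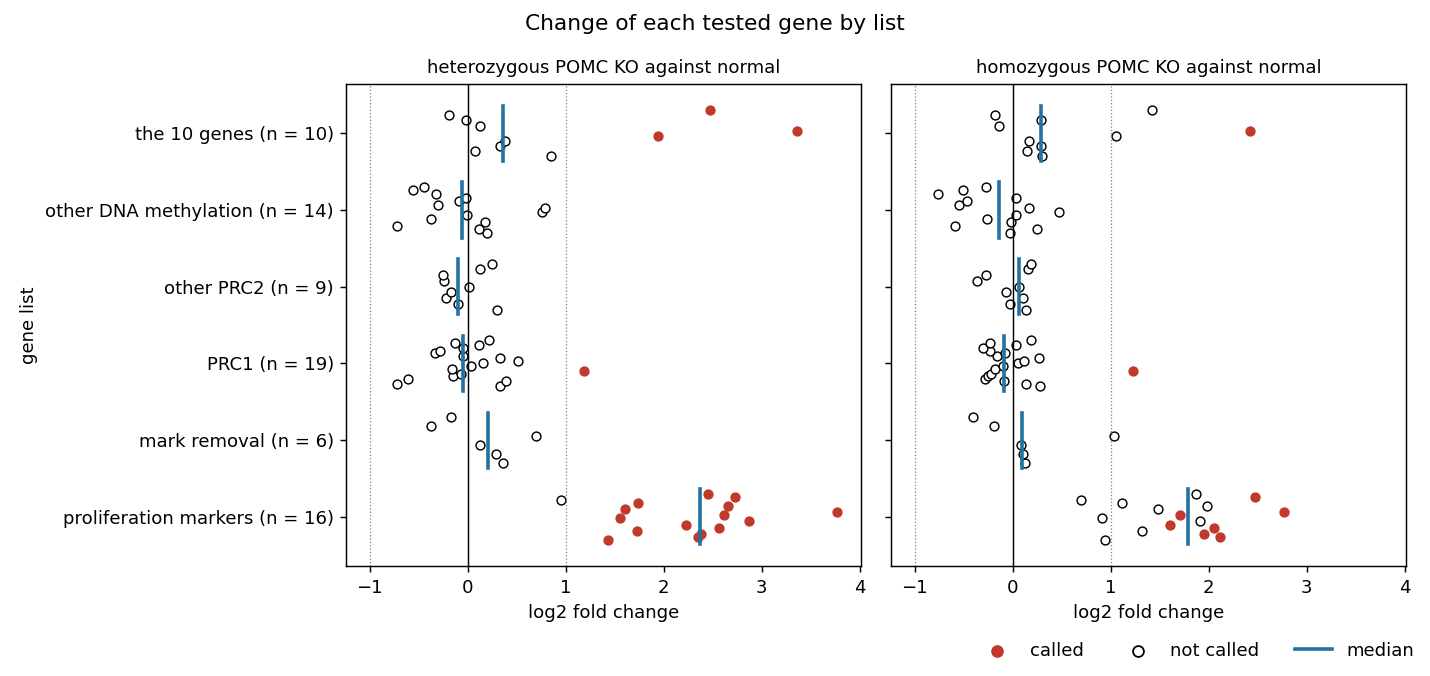
Log2 fold change of every tested gene by list (1 point per gene, filled where called, with a bar at the list's median), for heterozygous POMC KO against normal and homozygous POMC KO against normal. In heterozygous tumors 15 of 16 proliferation markers are called and their median is 2.37, while the medians of the other DNA methylation and Polycomb lists lie between -0.10 and 0.21, with Kdm2b as the 1 called gene.

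Markers of cycling cells moved with Hells, Uhrf1 and Ezh2. Of 16 tested proliferation markers 15 were called higher in heterozygous tumors, where the list's median log2 fold change was 2.37. In the homozygous sample 7 were called, and the median was 1.79. Mki67, a protein of dividing nuclei, had 10.19, 10.16, 9.13 and 9.99 in the heterozygous samples and 9.2 in the homozygous sample, against 7.09 and 7.35 in the normal samples. The mean signal over the markers was 9.58, 9.35, 8.82 and 9.25 in the heterozygous samples and 8.70 in the homozygous sample, against 6.91 and 7.14 in the normal samples. Heterozygous sample 5-6 was the lowest of its group for 15 of the 16 markers, as it was for Hells, Uhrf1 and Ezh2, whereas Dnmt1 was lowest in 7-8 at all 3 probe sets. Sample 5-6 was also the lowest for 12 of the 19 genes of Polycomb repressive complex 1, and it had the lowest mean over the housekeeping genes, at 10.78 beside 10.86 to 10.89 in the other heterozygous samples. Top2a, a topoisomerase of dividing cells, was higher by 2.45 (limma adjusted p = 0.00268) and Pcna, the sliding clamp of DNA replication, by 1.74 (limma adjusted p = 0.00169) in heterozygous tumors. The part of cell division in the values of the 10 genes was not tested.

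Other cell types also differed between tumors and normal pituitary. Of 12 macrophage markers 9 were called higher in heterozygous tumors, and 1 was in the homozygous sample, with mean signals of 8.04 to 8.71 in the heterozygous samples and 7.71 in the homozygous sample, against 6.55 and 6.80 in the normal samples. Of 8 markers of the other pituitary hormone cells 5 were called lower in heterozygous tumors, and 0 were in the homozygous sample, with means of 8.26 to 10.36 in the heterozygous samples and 10.64 in the homozygous sample, against 12.49 and 12.45 in the normal samples. Of 4 tested markers of the posterior lobe and folliculostellate cells 3 were called lower in heterozygous tumors, and 1 was in the homozygous sample, with means of 5.57 to 5.90 in the heterozygous samples and 6.61 in the homozygous sample, against 7.48 and 7.70 in the normal samples. Of 6 markers of melanotrophs and corticotrophs, the cells that make Pomc, 1 was called higher and 1 lower in heterozygous tumors. Of 7 endothelial markers 1 was called lower and 0 higher in heterozygous tumors, and of 3 tested lymphocyte markers 1 was called higher. The part of these cells in the values was not tested.

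The samples also differed in Xist, the RNA that coats the silent X chromosome of female cells. It was at 4.58, 10.93, 5.0 and 11.25 in the heterozygous samples and 11.20 in the homozygous sample, against 5.07 and 4.57 in the normal samples, so that low and high values both occur among the heterozygous tumors. With the low heterozygous samples 1-2 and 5-6 set against the normal samples alone, a comparison added after the data were seen, Hells was higher by 3.23 (limma adjusted p = 0.00108), Uhrf1 by 2.32 (limma adjusted p = 0.0075) and Ezh2 by 1.83 (limma adjusted p = 0.00981). Kdm6a, an X-linked enzyme that removes the Polycomb mark, known to escape X inactivation, had 8.90, 9.74, 8.89 and 9.81 in the heterozygous samples and 9.66 in the homozygous sample, against 8.84 and 8.43 in the normal samples. Its higher values were those of the 3 samples with high Xist, and it was not called (log2 fold change 0.70, limma adjusted p = 0.151).

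The genes most like Hells, Uhrf1 and Ezh2 across the samples were found by the root mean square difference of log2 signals over the 7 samples, each gene centred on its own mean. Nearest to Hells were Cdt1, which licenses replication origins, at 0.104, Cdc6, which acts with it, at 0.161, and the cyclin Ccne2 at 0.171. Over all tested genes the median distance from Hells was 1.49, near the spread of Hells about its own mean (1.48). The nearest genes lie under such a median because they were picked as the nearest, so it gives the scale alone. Nearest to Uhrf1 were Clspn, an adaptor of the replication checkpoint, at 0.121, the chromatin assembly subunit Chaf1b at 0.136 and the DNA polymerase subunit Pole at 0.141, against a median of 1.14. Nearest to Ezh2 were the DNA ligase Lig1 at 0.0983, Trim59 at 0.127 and the thymidine kinase Tk1 at 0.136, against a median of 0.903. Cdt1 had signals of 10.75, 10.90, 10.31 and 10.57 in the heterozygous samples and 9.72 in the homozygous sample, against 7.31 and 7.34 in the normal samples. Of the 7 of these genes with a promoter window, 4 held E2F letters, and of the proliferation markers 5 of 15 did, beside 4.71% of tested genes with a window. A link between these letters and the patterns was not tested.

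**Figure D5:**
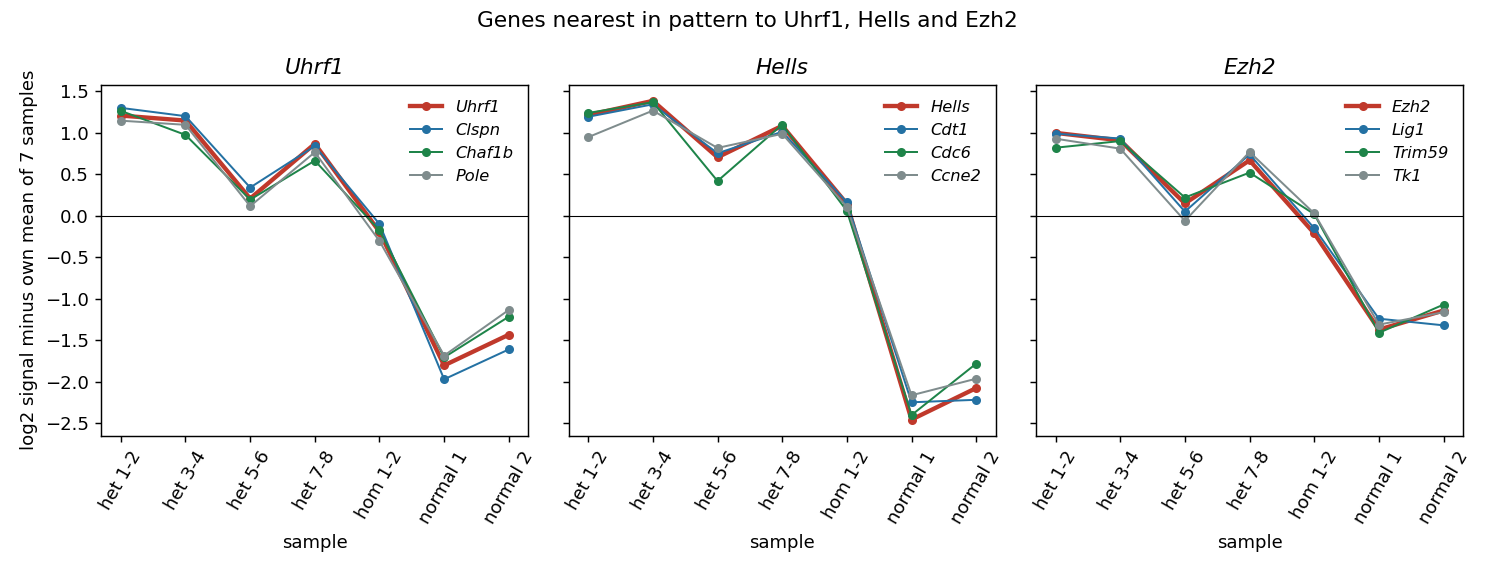
Log2 signal, centred on each gene's own mean, of Hells, Uhrf1 and Ezh2 and the 3 genes nearest to each, in the 7 samples from heterozygous POMC KO through homozygous POMC KO to normal. The lines of a panel lie close together (root mean square differences of 0.0983 to 0.171), with a lower point at heterozygous sample 5-6 and the homozygous sample below heterozygous samples 1-2, 3-4 and 7-8 and above both normal samples.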

How the data were processed

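Expression was measured in 12 mouse pituitary arrays (8 heterozygous POMC KO, 2 homozygous POMC KO, 2 normal). The authors normalized them by Robust Multichip Average and deposited log2 values. The submitters' processing notes name Affymetrix Expression Console, and the study's methods name GeneSpring GX 9.2. Probe sets were named from GEO's platform annotation: 34945 of 45101 named 1 gene. Probe sets that reached the overall median (5.74) in 2 or more arrays were tested (24486 probe sets, 12316 genes). Pairs of tumor arrays were averaged to 7 samples, a pairing inferred from their likeness, whereas the series text takes every array for its own mouse. limma 3.58.1 in R 4.3.3 fitted the 3 genotypes together, with 4 residual degrees of freedom and Benjamini-Hochberg adjustment, and was tested on simulated data. The single homozygous sample was given the spread of the other groups.

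Genes named were the 10 genes, called genes of the related lists and 3 examples that passed by adjusted p alone (Mbd3, Mbd4 and Bmi1, named after their values were seen, like Kdm6a and Xist), the paralogs Ezh1 and Tet3, Pomc, Mki67, Top2a and Pcna, and the 3 genes nearest in pattern to each called gene. The genes and lists were chosen with earlier results of these data known. The alternatives concerned the filter, the treatment of array pairs, normalization, the probe set standing for a gene, the test, the threshold, Xist, the replicate block and samples left out.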

Additional observations from a re-analysis of the deposited data

How the results depend on the processing

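In heterozygous POMC KO against normal, Hells, Uhrf1 and Ezh2 were called under all 23 alternatives. Dnmt1 was called under 6 of them, and over all 23 its log2 fold change lay between 0.72 and 1.85. None of these turned the direction of Hells, Uhrf1, Ezh2 or Dnmt1. Of the alternatives, 3 were chosen after seeing the data, namely the brightest probe set taken over the 12 arrays, the fit without the homozygous sample and the samples with low Xist alone.

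The homozygous comparison moved more. Of the 10 genes, 3 were called higher in homozygous POMC KO with the 12 arrays as separate samples and with the methods' one-way test, 2 with the pair as a random block, 0 with the dimmest probe set of each gene, and 0 to 2 with 1 sample left out. In homozygous against heterozygous POMC KO, 1 of the 10 was called lower with 12 separate arrays and with the one-way test. Of the 48 related genes, 0 were called higher in heterozygous tumors with the median or the dimmest probe set, and 4 higher and 5 lower by adjusted p alone. In the homozygous sample 0 were higher with the median probe set, the dimmest probe set or Xist as a covariate, and 0 to 1 with 1 sample left out.

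Over all genes, adjusted p alone gave 2984 in heterozygous tumors. The homozygous count was 692 with 12 separate arrays, 548 with the random block, 770 with the one-way test and 34 to 387 with 1 sample left out. Between the knockout genotypes it was 305, 142 and 385 in the same order, 7 with the stricter filter and 18 to 146 with 1 sample left out.

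Deviations of arrays 1 and 2 correlated across genotypes at 0.07, -0.02 and 0. Since these arrays are near-identical within a tumor genotype, the check cannot tell whether array numbers pair the samples. In each tumor genotype arrays 1 and 2 are 1 near-identical pair, so a fit on them alone counts 1 sample as 2. On those arrays alone, the fit with the replicate block called 3 of the 10 genes higher in the homozygous sample and 3 lower against heterozygous, and among related genes 1 lower in heterozygous, 2 higher in homozygous and 1 higher in homozygous against heterozygous. Without the block these counts were the same. Over all genes, it called 817 in the homozygous sample with or without the block, and 738 with it and 740 without it between the knockout genotypes. The cause of these shifts was not tested.

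Treating 2 near-identical arrays as separate samples narrows the spread, and with 1 homozygous and 2 normal samples the calls rest on few values. Signals near the array's floor are compressed, which concerns the normal levels of Hells and Uhrf1.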
